A study of Mus musculus with 8 samples.

Results

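Interferon-response genes are the genes that a cell switches on when interferon, the signal of the antiviral defence, reaches its receptors. A set of 32 of them was followed in the E12.5 mouse brain, and 30 of the 32 could be read on the arrays, of 18193 genes in all. Each was read on the probe set (the group of short probes that reads 1 transcript) that carries its name in the array annotation. Where a gene has several, the set with the highest mean over the 8 arrays was taken. *Isg15* is read only by a probe set that carries the name of another gene as well, no probe set is annotated to *Ifi44*, and neither is analysed here.

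The *Cre+, Rest GTi/GTi* group (Cre+ for short) comprised 4 arrays of brain RNA from C57/BL6 embryos that carry the *Nestin Cre* transgene, and the control group 4 arrays of brain RNA from *Rest GTi/GTi* littermates without it. Both genotypes are E12.5 and carry the same inverted gene-trap alleles of *Rest*, the gene of a transcriptional repressor of neuronal genes. Cre turns the trap round so that it stops *Rest* expression. The *Nestin* promoter drives Cre in neural progenitors, from which microglia and vessel cells do not arise. Cre is present in every Cre+ array and in no control, so the effect of Cre and that of REST loss cannot be told apart. The arrays are labelled as biological replicates, and whether an array holds 1 embryo or several is not stated, so p-values measure the spread between these arrays. In RNA of brain tissue, fewer cells of a type and less RNA per cell cannot be told apart.

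As background, type I interferons bind a receptor made of IFNAR1 and IFNAR2. The kinases JAK1 and TYK2 then phosphorylate STAT2, which acts with IRF9 on a promoter element named the interferon-stimulated response element (ISRE). The genes so induced encode antiviral effectors, sensors of viral nucleic acid and factors that amplify or dampen the signal. In the brain, microglia, the resident macrophages, are known to respond to interferon.

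In Cre+ brain *Rest* itself had intensities of 163.1, 216.7, 84.4 and 133.7, against 170.1, 271.8, 211.1 and 198.3 on the controls (log2 fold change -0.51, standard error 0.25, two-sided exact permutation p = 0.143). These overlapping values test the labels only in part, because the place of the probes relative to the trap is not known here. They come from the brightest of 4 *Rest* probe sets, and the others are not given here. The female transcript *Xist* was high on controls 2 and 3 only, and the Y-linked *Eif2s3y* on the other 6 arrays. The first principal component (25.9% of variance) set Cre+ replicates 1 and 2 off from all other arrays, with a summed level of 12 mesenchyme markers of 10101 and 14475 against 633 to 1525 on the controls. None of 8 embryonic brain markers was called different between the genotypes, and all 8 had a mean above 56.4, the median over all probe sets, in at least 1 genotype.

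The 250 bases before the start were searched in the RefSeq promoter table (build GRCm38.p6) for the ISRE letters TTTCNNTTTC, which read GAAANNGAAA on the other strand. Of the 32 genes, 23 have an entry, and 12 of these (52.2%) held a match, against 936 of all 27025 genes (3.46%). The letters of the gamma-activated site (GAS), TTCNNNGAA on both strands, were found in 5 of the 23 (21.7%), against 8.13% of all genes. A match of letters is no proof of binding. Windows of 7 genes are printed here because they belong to the genes with the highest log2 fold changes among measured genes with a match (*Rsad2*, *Trim30a*, *Ifit3*, *Gbp2*), to a close relative (*Ifit1*) and to a pair that did not share this direction (*Stat2*, *Oas3*). Each runs 5′ to 3′ on the strand of its gene, with the ISRE letters in capitals. They lie at chr12:26456543-26456592 (minus strand), chr3:142620584-142620633 (plus), chr19:34583353-34583436 (plus), chr7:104465200-104465249 (minus), chr19:34640765-34640833 (plus), chr10:128270256-128270305 (plus) and chr5:120777705-120777754 (minus), in the order of the lines that follow.
Rsad2: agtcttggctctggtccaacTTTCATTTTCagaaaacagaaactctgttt
Gbp2: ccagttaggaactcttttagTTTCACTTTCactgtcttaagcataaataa
Ifit3: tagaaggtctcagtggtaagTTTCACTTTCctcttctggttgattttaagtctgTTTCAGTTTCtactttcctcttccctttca
Trim30a: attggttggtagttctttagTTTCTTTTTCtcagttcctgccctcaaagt
Ifit1: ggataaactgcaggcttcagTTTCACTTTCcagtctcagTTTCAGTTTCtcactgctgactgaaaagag
Stat2: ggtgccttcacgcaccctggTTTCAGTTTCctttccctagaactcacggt
Oas3: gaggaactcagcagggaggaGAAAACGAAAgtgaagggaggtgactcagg

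None of the 30 measured genes passed the test between Cre+ and control brain, and most of them read slightly higher in Cre+. By limma with Benjamini-Hochberg adjustment over all probe sets, 0 genes of the set were called higher and 0 lower, against 0.214% of all genes called higher and 0.011% called lower. The lowest adjusted p of the set was 0.337 (*Gbp2*). At an unadjusted p under 0.05, 7 were higher (23.3%, against 3.94% of all genes) and 0 lower (against 3.03% of all genes). They are *Gbp2*, *Rsad2*, *Trim30a*, *Parp14*, *Ddx58*, *Ifit3* and *Oasl2*. The log2 fold change, computed on the intensity plus 16, was above 0 for 25 of the 30 (83.3%, against 49.5% of all genes), with a median of 0.22 beside -0.001 over all genes. In 4 genes every Cre+ array lay above every control (13.3%, against 2.48% of all genes), and in 0 every array lay below (against 2.15%). The set was named for a shared inducer and its genes are not independent of each other.

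**Figure D1:**
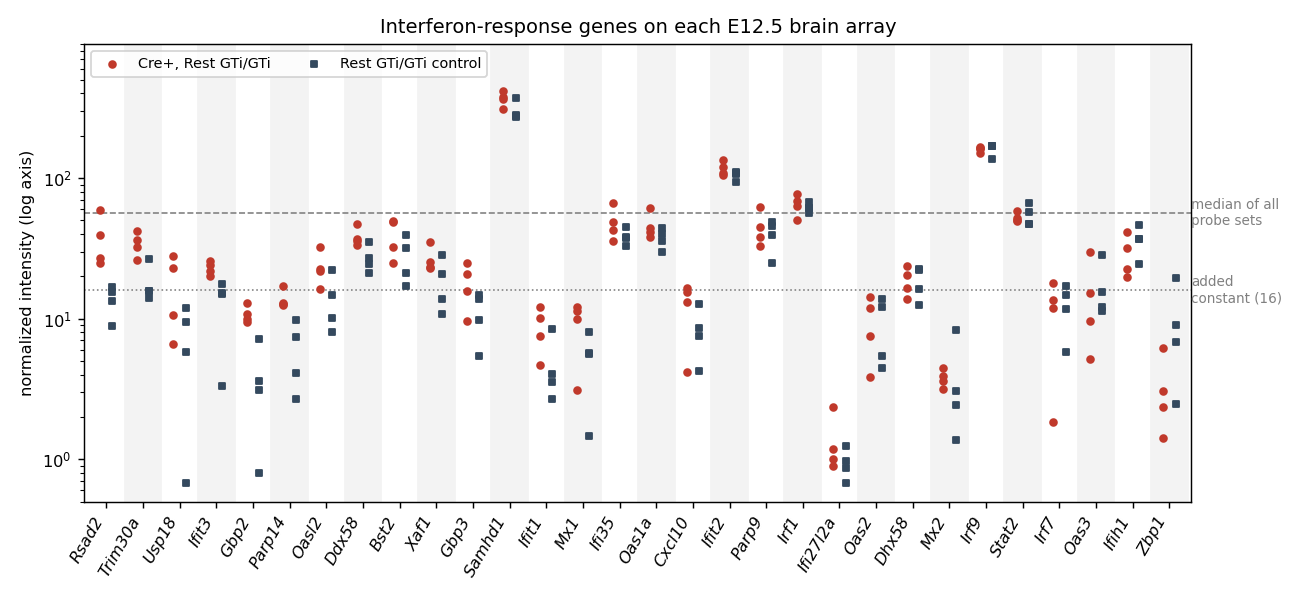
Normalized intensity (log axis) of the 30 measured interferon-response genes on each array, ordered by fold change, with the 4 Cre+, Rest GTi/GTi arrays (circles) left of the 4 controls (squares). Of the genes shown, 26 are dim in both genotypes, and Rsad2, Ifit3, Gbp2 and Parp14 are those in which the genotypes do not overlap.

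Signal was low for most of the set. In 26 of the 30 the mean intensity was under 56.4, the median over all probe sets, in both genotypes, and these are called dim here (38.7% of all genes are dim). In 13 the mean over the 8 arrays was under the added constant of 16, which shrinks their fold changes. Only *Samhd1*, *Ifit2*, *Irf1* and *Irf9* were not dim, and none of these passed at an unadjusted p under 0.05. Over these 4 genes the median log2 fold change was 0.10. The 95% interval of the log2 fold change lay between -1 and 1 for 28 of the 30, and no interval reached beyond -0.79 or 1.26. These bounds hold for the intensity plus 16 only. Over the alternatives of processing, the log2 fold change reached 1.51 for *Gbp2*, 1.33 for *Usp18* and -1.14 for *Zbp1*.

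Among the antiviral effectors, the radical-SAM enzyme viperin (*Rsad2*) had the highest fold change of the set. Its intensity was 59.4, 39.4, 27.2 and 24.96 on Cre+ replicates 1 to 4, against 13.3, 16.7, 8.90 and 15.6 on the controls. All 4 Cre+ arrays lay above the highest control, and replicates 1 and 2, which also carry the mesenchyme transcripts, were the highest. The log2 fold change was 0.82 (standard error 0.19, limma adjusted p = 0.349). The other probe sets of *Rsad2* gave 0.34 and -0.14, so the probe sets disagreed in size and in direction. The probe set with -0.14 had all 8 values under the added constant.

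The guanylate-binding GTPase gene *Gbp2* read 9.99, 9.46, 10.8 and 12.8 in Cre+ brain, against 3.62, 7.21, 0.80 and 3.12 in controls. The genotypes did not overlap, and all 8 values were under the added constant. The means were 10.8 ± 1.48 in Cre+ brain and 3.69 ± 2.65 in controls (SD, n = 4 each), with a log2 fold change of 0.45 (standard error 0.10). A further probe set of *Gbp2*, of a kind that can hybridise with related transcripts, read 9.31, 9.06, 14.1 and 8.80 in Cre+ brain, against 1.18, 0.20, 1.01 and 0.675 in controls. It was the only one of 18 further probe sets of the set's genes to be called (log2 fold change 0.65, limma adjusted p = 0.0276). With the mean of both probe sets in place of the brighter, *Gbp2* was called too (adjusted p = 0.0261). These values lie at the floor of the array, and whether related *Gbp* transcripts contribute was not tested. The related *Gbp3* had a log2 fold change of 0.32 with overlapping genotypes.

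The ADP-ribosyltransferase gene *Parp14* read 12.6, 12.9, 12.54 and 17.1 on Cre+ arrays, against 2.70, 9.84, 4.11 and 7.36 on controls. Cre+ replicate 4 stood above the other 3, which were nearly equal, and no control reached them (log2 fold change 0.45, standard error 0.11). A further probe set of *Parp14* gave -0.07, with all 8 values under the constant, as were 7 of the 8 values above. Its partner gene *Parp9* overlapped between the genotypes (0.12).

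*Ifit3*, which codes for an antiviral protein with tetratricopeptide repeats, read 24.2, 22.0, 20.2 and 25.5 in Cre+ brain, against 15.2, 17.6, 14.9 and 3.33 in controls. The genotypes did not overlap, and control 4 was far below the other 3 (log2 fold change 0.47, standard error 0.17). *Ifit1*, whose protein binds viral RNA that lacks the host's cap mark, read 12.2, 4.67, 10.1 and 7.49 in Cre+ brain, against 3.52, 4.05, 2.67 and 8.38 in controls. Its genotypes overlapped through control 4 and Cre+ replicates 2 and 4 (0.25, standard error 0.12). *Ifit2*, another member of the family, read 109, 134, 105 and 120 in Cre+ brain, against 107, 93.1, 110 and 108 in controls (0.14, standard error 0.09). The 3 genes thus all had fold changes above 0, with separation in *Ifit3* alone.

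*Trim30a*, a mouse gene for a ubiquitin ligase that restrains inflammatory signalling, read 26.3, 32.1, 36.5 and 42.1 on Cre+ arrays, against 15.8, 15.7, 13.9 and 26.7 on controls. The genotypes overlapped only through control 4 and Cre+ replicate 1 (log2 fold change 0.57, standard error 0.14, limma adjusted p = 0.394). Its further probe set gave 0.69, with every Cre+ array above every control.

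**Figure D2:**
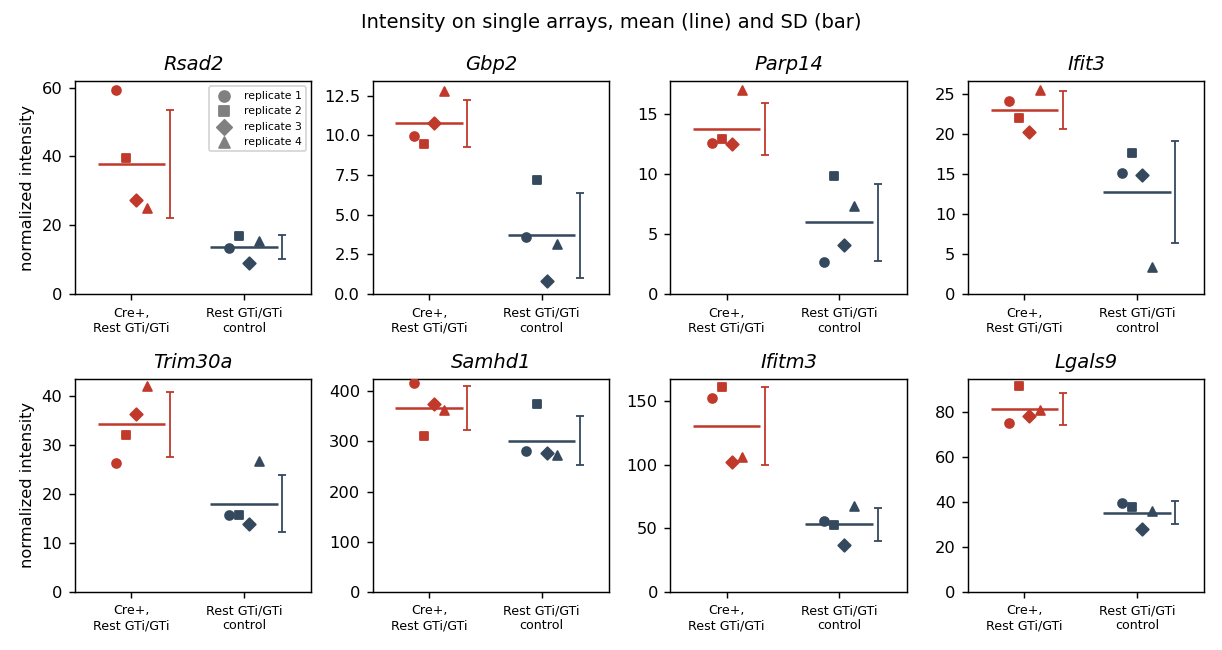
Normalized intensity on single arrays for 6 genes of the set and 2 other interferon-induced genes, with Cre+, Rest GTi/GTi left of control, a line at the mean and a bar of 1 SD (n = 4 arrays per genotype). Only Lgals9 passed the test. Trim30a and Samhd1 overlap between the genotypes, and Rsad2 and Ifitm3 are highest on Cre+, Rest GTi/GTi replicates 1 and 2.

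The oligoadenylate synthetases, which activate the antiviral nuclease RNase L, had fold changes of both signs, and none passed the test. The log2 fold changes were 0.21 for *Oas1a*, 0.02 for *Oas2* and -0.12 for *Oas3*, and 0.40 for *Oasl2*, a relative of this family. *Oas3* ran from 5.19 to 29.8 in Cre+ brain and from 11.3 to 28.5 in controls, the widest interval of the set (-0.68 to 0.45). The Mx genes, dynamin-like GTPases that block incoming viruses, had 0.24 (*Mx1*) and 0.01 (*Mx2*), all at intensities under the constant. *Bst2*, the gene of the virus-holding protein tetherin, had 0.34 with overlapping genotypes.

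*Samhd1*, which codes for an enzyme that breaks down deoxynucleotides, was not dim. Its intensity was 417, 311, 375 and 364 in Cre+ brain, against 280, 375, 277 and 273 in controls. Control 2 stood at the level of the Cre+ arrays, and the others lay below all 4 (log2 fold change 0.27, standard error 0.13, limma adjusted p = 0.743). Of its further probe sets, 3 gave 0.10, 0.14 and 0.35 and the other -0.08.

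The transcription factors of the pathway showed no separation. *Stat2* read 52.4, 58.3, 49.9 and 50.5 in Cre+ brain, against 47.2, 57.3, 66.7 and 47.2 in controls (-0.03, standard error 0.10). The further probe set of *Stat2*, also dim, gave -0.24 (standard error 0.13) with overlapping genotypes. *Irf9*, its DNA-binding partner, read 167, 165, 152 and 162 in Cre+ brain, against 171, 169, 170 and 137 in controls, with a log2 fold change of 0.00 and a 95% interval from -0.19 to 0.19. *Irf1*, which acts mainly downstream of interferon-gamma, read 77.5, 50.3, 68.9 and 63.0 in Cre+ brain, against 56.0, 61.1, 61.1 and 67.6 in controls (0.05). The genotypes overlapped in all 3. *Irf7*, the factor that amplifies interferon production, was dim (-0.07), and its values ran from 1.84 to 18.0 in Cre+ brain and from 5.76 to 17.1 in controls.

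Of the sensors of cytoplasmic RNA, *Ddx58*, the gene of RIG-I, read 33.2 to 46.9 in Cre+ brain, against 21.1 to 34.8 in controls (0.34, limma adjusted p = 0.629). The ranges overlapped by 1 array of each genotype. The further probe sets of *Ddx58* gave -0.10 and -0.07, with 8 and 5 of the 8 values under the constant. *Ifih1*, the gene of MDA5, had a fold change below 0 and did not pass (-0.22, standard error 0.18), and *Dhx58*, the gene of the regulator LGP2, had 0.01. *Zbp1*, the gene of a sensor of Z-form nucleic acid, had the lowest fold change of the set, with intensities of 6.17, 2.36, 3.04 and 1.41 in Cre+ brain, against 2.48, 19.4, 6.81 and 9.04 in controls (-0.37, standard error 0.18). Control 2 was the highest, controls 3 and 4 also lay above every Cre+ array, and 7 of the 8 values were under the constant. When each array was left out, the log2 fold change of *Zbp1* ran from -0.51 to -0.19. Its further probe set gave -0.07, with all 8 values under the constant.

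The remaining genes were dim and overlapped between the genotypes. *Usp18*, which strips ISG15 from proteins and dampens the receptor, had a log2 fold change of 0.50 (standard error 0.24), with 28.0 and 22.9 on Cre+ replicates 1 and 4 and 6.55 and 10.6 on replicates 2 and 3, against 0.675 to 11.9 on the controls. *Xaf1*, a pro-apoptotic gene, had 0.32 (0.09 on its further probe set), and *Cxcl10*, the gene of a chemokine for T cells, had 0.21. *Ifi35* had 0.23, with 0.22 and 0.77 on its further probe sets, both with every Cre+ array above every control. The probe set with 0.22 had all 8 values under the constant. Those with 0.23 and 0.77 are of a kind that can hybridise with related transcripts. *Ifi27l2a* was near 1 on all arrays (0.887 to 2.36 in Cre+ brain, against 0.675 to 1.24 in controls), too low for a change to be read. Over the 18 further probe sets, which belong to 11 genes, 10 had a fold change above 0, near the 49.5% of all genes, and 4 had every Cre+ array above every control (against 2.48% of all genes). Both background shares are those of the brightest probe set of each gene.

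**Figure D3:**
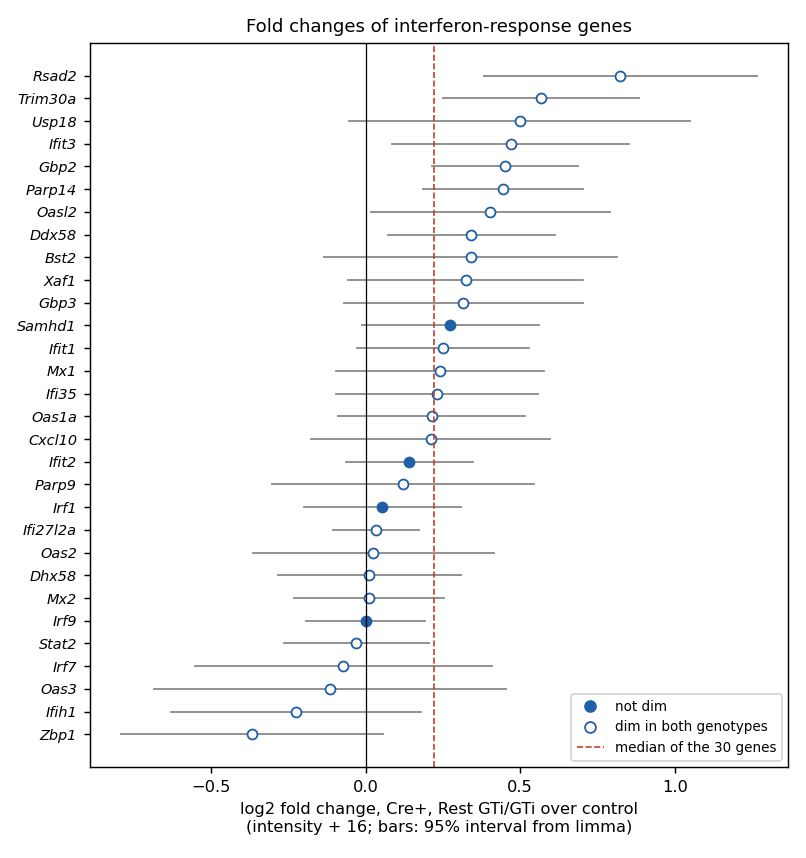
Log2 fold change of Cre+, Rest GTi/GTi over control for the 30 genes, on the intensity plus 16, with 95% intervals from limma (n = 4 arrays per genotype). The 4 filled genes are not dim, 25 of the points lie above 0, and the dashed line marks the median of 0.22.

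The fold changes of genes with and without an ISRE match in the promoter window overlapped. The 11 measured genes with a match had a median of 0.32 and ran from -0.12 to 0.82, with 9 above 0. The 10 with a promoter entry but no match had a median of 0.19 and ran from -0.22 to 0.40, with 8 above 0. The genes printed above span this range, as *Rsad2* (0.82) and *Oas3* (-0.12) each hold 1 match, and *Ifit3* (0.47) and *Ifit1* (0.25) each hold 2.

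The wider interferon pathway was followed in 115 further genes, 101 of which were measured. Of these, 1 was called higher and 0 lower, against 0.214% and 0.011% of all genes. The gene that passed the test was *Lgals9*, which codes for galectin-9, an interferon-induced lectin also made by macrophages. It read 75.1, 91.6, 78.4 and 80.8 in Cre+ brain, against 39.4, 37.6, 27.9 and 35.9 in controls. The groups were far apart (log2 fold change 0.93, standard error 0.09, limma adjusted p = 0.0111). At an unadjusted p under 0.05, 14 of the 101 were higher (13.9%, against 3.94% of all genes) and 2 lower (against 3.03% of all genes). In 11 every Cre+ array lay above every control (10.9%, against 2.48% of all genes), and 64 had a fold change above 0 (63.4%, against 49.5%), with a median of 0.04. The call of *Lgals9* was kept when any single array was left out. It was lost in 7 of 22 alternatives, among them Cre+ replicates 3 and 4 alone (log2 fold change above 0 throughout).

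All 8 measured interferon ligand genes were dim, and 7 of them had a mean under the added constant, with a median log2 fold change of -0.06. *Ifnb1* read 15.5, 14.8, 10.1 and 5.66 in Cre+ brain, against 18.0, 22.4, 15.3 and 16.4 in controls. The genotypes overlapped by Cre+ replicate 1 and control 3, and *Ifnb1* did not pass (-0.32, standard error 0.13, limma adjusted p = 0.706). *Ifna4* (0.12) and *Ifng* (-0.12) overlapped as well.

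Of the 8 receptors and kinases none was dim and 0 passed. *Ifnar1* read 289, 243, 250 and 262 in Cre+ brain, against 233, 242, 262 and 252 in controls (0.07), and *Ifnar2* read 144, 153, 152 and 140 in Cre+ brain, against 156, 119, 93.9 and 159 in controls (0.17). Both overlapped between the genotypes. *Il10rb*, a chain shared by the receptors of interferon-lambda and interleukin-10, read 88.9, 95.2, 72.6 and 77.3 in Cre+ brain, against 43.9, 65.6, 49.2 and 50.6 in controls. It separated the genotypes without passing the test (0.55, standard error 0.12, limma adjusted p = 0.283). *Jak1* had 0.13.

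Among the other transcription factors 0 of 7 passed. *Irf8*, a factor of the macrophage lineage, read 37.5, 35.4, 37.5 and 38.3 in Cre+ brain, against 9.94, 28.1, 29.6 and 22.6 in controls. All 4 values lay above the highest control (0.50, standard error 0.17, limma adjusted p = 0.614). *Irf4* (-0.18) and *Stat4* (-0.26) overlapped. Of 15 sensors and adaptors, 0 passed. *Myd88*, the adaptor of the Toll-like receptors, read 114, 113, 105 and 94.3 in Cre+ brain, against 76.1, 83.2, 92.0 and 88.2 in controls, without overlap (0.28). *Tlr7*, a receptor of single-stranded RNA, was dim and did not pass (-0.54, limma adjusted p = 0.430, with 0.22 and 0.17 on its further probe sets, so the direction rests on 1 probe set), and *Tlr4* had 0.23. Of 12 inhibitors and genes of nucleic acid clearance, 0 passed, with 0.55 for the nuclease gene *Isg20*, 0.48 for the phosphatase gene *Ptpn6* and -0.18 for *Dnase2a*.

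Of the other interferon-induced genes, 30 were measured and 1 (*Lgals9*) passed, against 0.214% of all genes called higher. In 5 every Cre+ array lay above every control, against 2.48% of all genes. *Ifitm3*, which codes for a membrane protein that blocks virus entry, read 152, 161, 102 and 106 in Cre+ brain, against 55.4, 52.5, 36.4 and 67.8 in controls. The lowest Cre+ array was above the highest control, and replicates 1 and 2 were the highest (log2 fold change 1.08, standard error 0.18, limma adjusted p = 0.135). *Parp12* read 73.4, 63.2, 55.5 and 45.6 in Cre+ brain, against 19.2, 33.1, 25.0 and 34.1 in controls, without overlap (0.78, limma adjusted p = 0.200). *Ifitm1*, a relative of *Ifitm3*, read 136.8, 97.5, 32.5 and 42.1 in Cre+ brain, against 18.1, 27.6, 28.5 and 22.0 in controls, without overlap and highest on Cre+ replicates 1 and 2 (1.07, limma adjusted p = 0.593). *Rtp4* separated the genotypes too, at 23.98 to 41.6 in Cre+ brain and 11.3 to 22.3 in controls (0.64, limma adjusted p = 0.303), while its further probe set gave 0.03. The median of this group was 0.15. Of 21 interferon-gamma and antigen presentation genes, 0 passed, with a median of 0.10. *B2m*, the light chain of MHC class I, read 829, 821, 570 and 716 in Cre+ brain, against 495, 572, 581 and 480 in controls (0.44, limma adjusted p = 0.537), and overlapped by Cre+ replicate 3, while its further probe set gave 0.65 without overlap. The peptide transporter gene *Tap1* separated the genotypes at low intensity (0.56), with -0.02, -0.05 and -0.20 on its further probe sets, and *Gbp7* (0.62) was highest on Cre+ replicates 1 and 2, at 70.1 and 63.4.

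**Figure D4:**
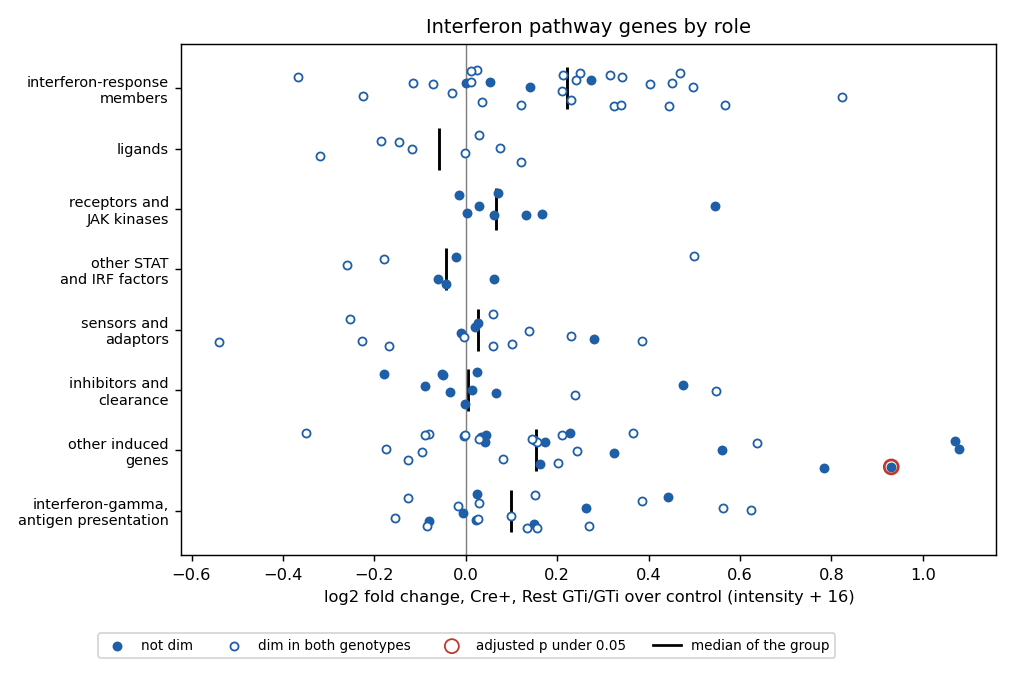
Log2 fold change of Cre+, Rest GTi/GTi over control (intensity plus 16) for the 30 interferon-response genes and 101 further pathway genes, 1 point per gene, grouped by role, with a line at the median of each group. The circled gene, Lgals9 (0.93), is the only gene of these lists that passed the test, and all 8 ligands are dim.

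Markers of other cells moved between the same arrays. Of 21 measured microglia and macrophage markers, 9 were called higher in Cre+ brain (against 0.214% of all genes) and 0 lower (against 0.011%). Their summed intensity ran from 2573 to 3276 on Cre+ arrays, against 1036 to 1207 on controls, and *Itgam* alone of them was under the constant on all arrays. The mean log2 level of this list on Cre+ replicates 1 to 4, relative to the control mean, was 1.15, 1.12, 0.81 and 0.75. For the 30 interferon-response genes it was 0.26, 0.21, 0.12 and 0.20, against -0.04, 0.05, -0.03 and 0.01 on the controls. All 4 Cre+ arrays thus lay above the controls in both lists. The 101 genes of the wider pathway had 0.18, 0.13, 0.01 and 0.12, against -0.03, 0.05, -0.03 and 0.01 on the controls. In that list Cre+ replicate 3 lay below control 2. The 12 mesenchyme markers had 2.12, 3.07, -0.12 and -0.26, and the 10 endothelial markers 0.75, 0.55, 0.08 and 0.07, and both were high on replicates 1 and 2 only. The 12 hindbrain and spinal cord Hox genes had -0.46, 0.55, 1.94 and 1.12 on Cre+ arrays, against 0.65, -0.30, -0.31 and -0.04 on controls, and the 8 erythroid markers 0.68, -0.01, -0.23 and -0.07, against -0.29, -0.01, 0.14 and 0.16. Hox levels were highest on Cre+ replicates 3 and 4, and erythroid levels on Cre+ replicate 1. The interferon-response, microglia and endothelial lists were also highest on Cre+ replicate 1. Of 10 lymphocyte, natural killer and dendritic cell markers, 0 were called, 5 had a fold change above 0, and *Cd3d*, *Cd4*, *Cd79a* and *Flt3* were under the constant on every array. *Siglech*, the gene of a lectin of plasmacytoid dendritic cells that microglia express too, read 21.4, 23.8, 25.1 and 27.8 in Cre+ brain, against 2.83, 20.3, 10.1 and 4.28 in controls, without overlap (0.72, limma adjusted p = 0.459). *Zbtb46*, the only gene of this list that was not dim, had 0.21 with overlapping genotypes. The part of these cells and of the dissected tissue in the values of the interferon genes was not tested.

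**Figure D5:**
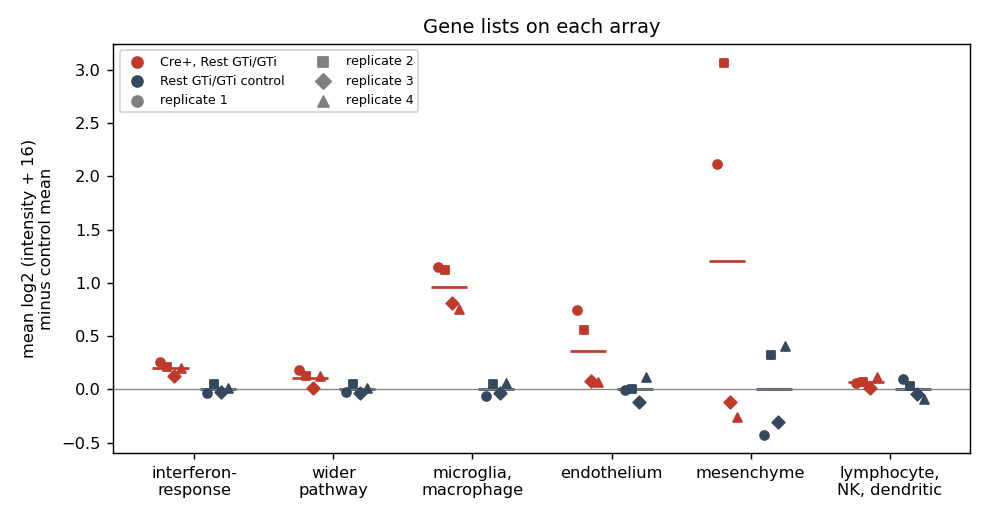
Mean log2 level (intensity plus 16) of 6 gene lists on each array, as a difference from the control mean, with Cre+, Rest GTi/GTi left of control, a symbol for each replicate number and a line at the mean of the genotype. The interferon-response genes lie at 0.12 to 0.26 in Cre+, Rest GTi/GTi, the microglia and macrophage markers at 0.75 to 1.15, and the mesenchyme markers are high on replicates 1 and 2 only.

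With Cre+ replicates 3 and 4 alone against the controls, 22 of the 30 interferon-response genes had a fold change above 0, 5 were higher at an unadjusted p under 0.05, 0 were called, and the median log2 fold change was 0.15. It was 0.14 with *Eif2s3y* as a covariate and 0.11 with a constant of 50.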

How the data were processed

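RNA of E12.5 brain was read on 1-colour Affymetrix mouse arrays, 4 per genotype. The authors deposited 1 linear intensity for each probe set and array, although the authors' methods name RMA with AffyPLM and log2 transformation, and the labels name RMA without a version. Array medians ran from 40.9 to 68.0, and their number (8) limits the precision. The table has 45101 probe sets, 64 of them Affymetrix controls that were not used. Intensities were quantile normalized, 16 was added, and log2 values were tested over 45037 probe sets with limma 3.58.1 (lmFit and eBayes, R 4.3.3), adjusted by Benjamini-Hochberg and called at 0.05. In the platform annotation 34945 probe sets carry a single gene, 932 more than 1 and 9160 no gene. The files name no genome build, so coordinates are given only for the RefSeq promoters. The script was tested on simulated data.

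The members and the gene lists were chosen with earlier results of these data known. Among the members, values array by array were set for genes called, for genes whose genotypes do not overlap and for genes that are not dim. In the wider pathway, genes called, the 3 with the smallest p of each list and *Ifnar1*, *Ifnar2*, *Ifnb1*, *Ifitm3* and *B2m* were named. This left out *Gbp6* (0.38) and *Ifi204* (0.06), which had no overlap and all 8 values under the constant. *Ifitm1*, *Rtp4*, *Siglech*, *Zbtb46* and other members shown array by array were picked with their values in view. As alternatives, the methods' t-test was run with equal or unequal variances, and limma with eBayes trend and robust, a common median, cyclic loess or no scaling, constants of 1 and 50, dim probe sets removed, probe sets averaged within a gene, less specific probe sets removed, a replicate block, *Eif2s3y* as a covariate, controls 1 and 4 alone, Cre+ replicates 3 and 4 alone, and leaving out each array.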

Additional observations from a re-analysis of the deposited data

Results flagged for a closer look

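In 9 of 104 groups of 4 arrays examined, 1 array lay far from the other 3 for its genotype, past the 95% limit of Dixon for the gap to the nearest array over the whole range. Chance gives about 5.2 such groups. On control replicate 4 the gap was 0.834 of the range for *Trim30a* (intensity 26.7, high), 0.849 for *Ifit3* (3.33, low) and 0.971 for *Irf9* (137, low). On control replicate 2 it was 0.920 for *Samhd1* (375, high), 0.832 for *Ifit2* (93.1, low) and 0.830 for *Tlr4* (0.487, low). *Parp14* stood high on Cre+ replicate 4 (gap 0.908, intensity 17.1). *Stat4* stood low on Cre+ replicate 3 (gap 0.878, intensity 15.2) and on control replicate 3 (gap 0.913, intensity 25.2).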

How the results depend on the processing

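Most of these genes are dim, so small changes in them cannot be read, and the number of arrays limits what can be called. No interferon-response gene was called in 22 of 23 alternatives, and 1 (*Gbp2*) was called when its probe sets were averaged. The median log2 fold change of the set, 0.22, was 0.30 with a constant of 1, 0.11 with a constant of 50, 0.10 without dim probe sets, 0.14 with *Eif2s3y* as a covariate, 0.15 with controls 1 and 4 alone and 0.15 with Cre+ replicates 3 and 4 alone, and ran from 0.18 to 0.23 when each array was left out. The cause of these shifts was not tested.

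In the wider pathway 2 genes were called with trend and robust, and 0 with the methods' t-test, with unequal variances in it, with no scaling, without less specific probe sets, with *Eif2s3y*, with controls 1 and 4 alone and with replicates 3 and 4 alone. Of all genes, 41 were called, against 14 with the methods' t-test, 0 with unequal variances (at an unadjusted p under 0.05 it put 5 genes of the set higher), 2 with no scaling, 26 with a constant of 1, 14 with *Eif2s3y*, 7 with controls 1 and 4 alone, 0 with replicates 3 and 4 alone and 21 to 31 when each array was left out. The replicate numbers did not pair the arrays (residual correlations of -0.13 to 0.01 between arrays of the same number and -0.06 to 0.11 between others). With the replicate block 0 genes of the set, 0 of the wider pathway and 0 of all genes were called by limma, with 9 genes of the set higher at an unadjusted p under 0.05.

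Of the 30 genes, 21 kept the sign of the fold change in all alternatives. *Stat2* turned to 0.00695 with cyclic loess, 0.070 with no scaling, 0.128 with *Eif2s3y* and 0.120 with controls 1 and 4 alone. With *Eif2s3y* and with controls 1 and 4 alone, *Oas3* gave 0.00790 and 0.000890, *Mx2* -0.0632 and -0.0547, and *Ifnar2* -0.105 and -0.087. With replicates 3 and 4 alone, *Parp9* gave -0.095, *Mx2* -0.018 and *Irf9* -0.036. A common median gave -0.00322 for *Dhx58* and -0.029 for *Irf9*, and a constant of 50 gave -0.000469 for *Irf9*. When each array was left out, the log2 fold change ran from -0.020 to 0.219 for *Parp9*, -0.020 to 0.146 for *Irf1*, -0.323 to 0.047 for *Oas3*, -0.193 to 0.120 for *Irf7*, -0.080 to 0.049 for *Stat2*, -0.067 to 0.136 for *Oas2*, -0.047 to 0.114 for *Mx2*, -0.076 to 0.080 for *Dhx58* and -0.070 to 0.027 for *Irf9*. All of these genes lay near 0 on the probe set used, and none was called.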
